A study of Mus musculus with 4 samples.

Results

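The genes described here are 10 members of the insulin-like growth factor (IGF) system: the ligand Igf1, the receptors Igf1r and Insr, the adaptor Irs2 and the binding proteins Igfbp2, Igfbp3, Igfbp4, Igfbp5, Igfbp6 and Igfbp7. They were chosen by symbol out of 54348 rows of a deposited expression table, and each symbol names 1 row. Expression was measured by RNA-seq in live tdTomato-positive cells sorted from mouse forebrains at postnatal day 4. The fusion group was PdgfraCreER;MN1:BEND2;AI14 (2 libraries) and the control group was PdgfraCreER;AI14 (2 libraries). Mice of both groups thus carried PdgfraCreER, a tamoxifen-activated recombinase driven by Pdgfra, and AI14, which makes tdTomato after recombination, and both received tamoxifen intraperitoneally at P0 and P1. The fusion group also carried MN1:BEND2, a fusion gene found in astroblastoma, a brain tumour. Pdgfra marks oligodendrocyte precursors and is also made by some fibroblasts, so recombined cells need not be of 1 type. The labels do not give the promoter of MN1:BEND2, and the protocol removed the pial membranes before the tissue was digested. The question put to the 10 genes is how their expression differs when cells of the Pdgfra lineage carry the fusion gene.

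As background, IGF1 and IGF2 bind the IGF1 receptor, a tyrosine kinase closely related to the insulin receptor, and both receptors signal through IRS adaptors to PI3 kinase, Akt and mTOR. Secreted binding proteins hold IGFs outside the cell, and proteases release them by cutting the binding protein. In the developing brain the system is known for promoting growth and survival, and IGF1 for promoting oligodendrocyte precursor division, differentiation and myelination. IGFBP7 binds IGFs far more weakly than the other members do and is best known from blood vessels and matrix.

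The binding protein members other than Igfbp6 share a cysteine-rich motif near the amino end, which is shown because the largest change belongs to 1 of them. Each line gives 30 bases of the coding strand, 5′ to 3′, from GENCODE M21 transcripts (GRCm38), with the in-frame motif TGNGGNTGNTGN in capitals.
Igfbp2: gagcccggcTGCGGCTGCTGCtccgtgtgc
Igfbp3: gagcccggcTGCGGCTGCTGCctgacttgc
Igfbp4: gagccaggcTGCGGTTGTTGCgccacttgc
Igfbp5: gagcccggcTGTGGCTGCTGCatgacttgc
Igfbp7: cgcgacgcgTGCGGGTGCTGCccggtgtgt
The motif was searched in frame on the coding strand, and each of these coding sequences held 1 match. Igfbp6 held none. Of 21584 genes with a coding sequence, 102 held it, or 0.473%. The motif began between base 154 of the coding sequence, in Igfbp5, and base 205, in Igfbp3, and coding lengths ran from 714 bases in Igfbp6 to 939 bases in Igfbp7. Igfbp2 and Igfbp5 lie tail to tail on chromosome 1 with 5457 bases between them. The gene next to Igfbp3 on chromosome 11, at 3539 bases, is Igfbp1, which was listed at 0 in all 4 libraries.

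Values were TPM, a transcript abundance corrected for length whose total is fixed for every library, so read depth is unknown. The share of TPM from mitochondrially encoded genes was 48.7% and 26.2% in the fusion libraries, against 10.1% and 7.30% in the control libraries. At least 1 TPM was reached by 9050 and 10017 genes in the fusion libraries, against 12772 and 13219 genes in the control libraries. The part of these differences in the results below was not tested. Over 12871 tested genes the median log2 change, fusion minus control on log2(TPM + 1), was -1.41 (limma), and for the genes named below the change relative to that median is given where it helps to place the result. Bend2 had 3.82 and 8.72 TPM in the fusion libraries and was listed at 0 in the control libraries, as the labels require. The sum of 4 Y-linked genes was at most 0.281 TPM in a fusion library and at least 156 TPM in a control library, so sex and genotype cannot be told apart. In sorted bulk cells, fewer cells of a type and less RNA per cell cannot be told apart either.

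Among the 10 members, Igfbp7 rose steeply, Igfbp3 and Igf1r fell, and the others did not pass the test or were not tested. Of the 9 members that passed the filter on low values (at least 1 TPM in at least 2 libraries), 1 was called higher and 2 lower by limma, with a Benjamini-Hochberg adjusted p under 0.05 over all tested genes. Over all tested genes 56.3% were called, 4.95% higher and 51.3% lower. The members were thus called lower in 22.2% of cases against a background of 51.3%, and their median change was -0.24 against -1.41. On log2(TPM + 1) a low gene cannot fall far, and several members were at a few TPM or less in every library. With 9 genes, the contrast with the background therefore does not show that the members fell less than other genes. The lower fusion library exceeded the higher control library for 1 tested member, Igfbp7, as for 10.2% of all tested genes. The reverse held for 3, Igf1r, Insr and Igfbp3, as for 71.1% of all tested genes. When libraries were scaled by the median of their gene-wise ratios (median ratio scaling), Igfbp4 and Igfbp7 were called higher and no member lower, where 33.0% of all tested genes were called, 14.3% higher and 18.6% lower. The groups were then apart upward for Insr, Irs2, Igfbp4, Igfbp5 and Igfbp7, as for 31.3% of tested genes, and downward for Igf1r, as for 38.8%. With a correction for GC content and transcript length, Igfbp4 and Igfbp7 were again called higher and no member lower, where 30.2% of tested genes were called, 13.7% higher and 16.5% lower.

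**Figure D1:**
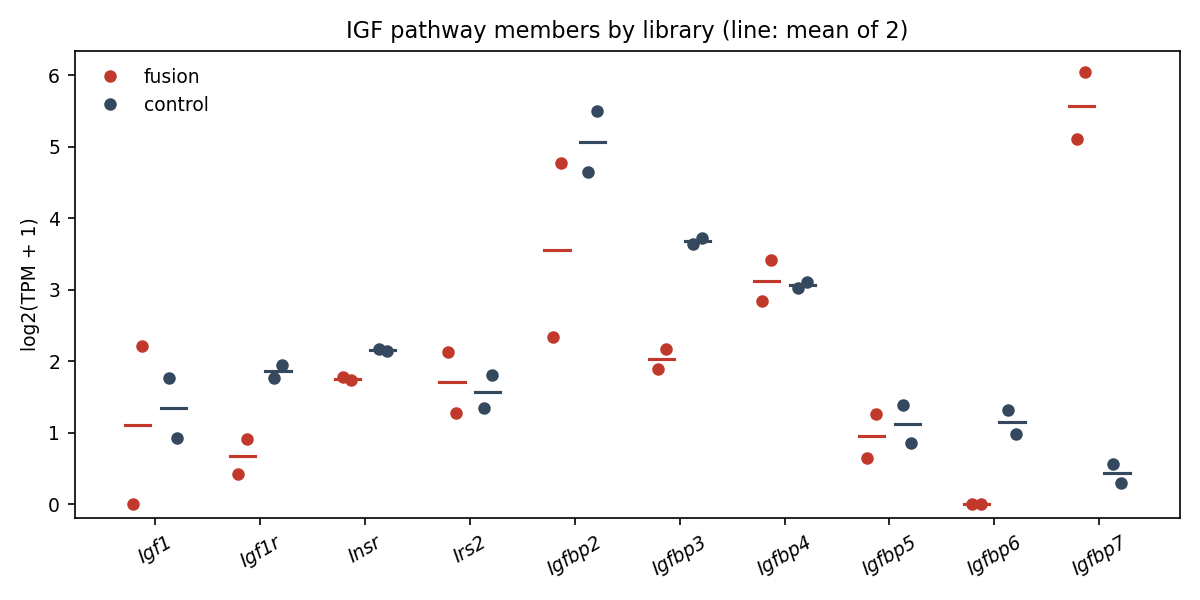
Expression of the 10 members as log2(TPM + 1) in each library. Each point is 1 library and each line the mean of the 2 log2 values of a group. Igfbp7 is the member for which the fusion libraries sit far above the control libraries, and Igfbp6 is at 0 in both fusion libraries.

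Igfbp7 (ENSMUSG00000036256.13, chromosome 5, 77349240 to 77408041, GRCm38, minus strand) had 33.4 and 64.9 TPM in the fusion libraries, against 0.483 and 0.229 TPM in the control libraries. It was the lowest of the 10 members by mean in the control group and the highest in the fusion group. Group means were 49.2 ± 22.3 TPM in fusion and 0.356 ± 0.180 TPM in control libraries (SD, n = 2 each), a ratio of 138, and the lower fusion library stood 69.2-fold over the higher control library. The log2 change was 5.14 ± 0.50 (SE; 95% interval 3.86 to 6.42; adjusted p = 0.00371, limma), or 6.55 relative to the median, and only 28 of the 12871 tested genes changed upward by more. Igfbp7 passed the filter on low values through the fusion libraries alone, the group where it is high, so its rank and p-value are not independent of that choice. With no filter the adjusted p was 0.021 (limma), where 1.42% of genes were called higher. Both control values were under 1 TPM, so the size of the ratio is uncertain. Igfbp7 stood above 89.5% and 90.9% of tested genes in the fusion libraries, against 3.04% and 2.08% in the control libraries. Without control replicate 1 the change was 5.28 (adjusted p = 0.0769) and without control replicate 2 it was 5.01 (adjusted p = 0.0912), where the spread of the single control library is taken to equal that of the fusion group. In these settings 15 and 14 of all 12871 genes were called higher.

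Igfbp7 overlaps Polr2b, for a subunit of RNA polymerase II, on the other strand, and 4.57% of the 31-base stretches of its transcripts occur in Polr2b as well. Polr2b had 5.29 and 11.96 TPM in the fusion libraries, against 46.5 and 51.6 TPM in the control libraries. The part of this overlap in the level of Igfbp7 was not tested. The part of endothelial cells, or of any other cell type, in the Igfbp7 change was not tested either. Of 12 endothelial markers, 7 were under 1 TPM in every library, and 2 passed the filter on low values. The sum of the 12 was 3.92 and 9.47 TPM in the fusion libraries, against 3.01 and 7.05 TPM in the control libraries. Egfl7 and Tek had the highest means among them. Egfl7 had 0.571 and 3.59 TPM in the fusion libraries, against 1.64 and 5.25 TPM in the control libraries. Tek had 0 and 3.55 TPM in the fusion libraries, against 0.0496 and 0 TPM in the control libraries. For both genes the groups overlapped. Pecam1, an endothelial marker named after its values were seen, was at 0.0435 TPM and at 0 in the fusion libraries, against 0.240 and 0.0433 TPM in the control libraries. Cdh5, an endothelial cadherin, was called higher and Egfl7, the other tested marker, did not pass, where 4.95% of all tested genes were called higher. Cdh5 had 1.11 and 1.13 TPM in the fusion libraries, against 0.252 and 0.152 TPM in the control libraries, and it passed the filter through the fusion libraries alone.

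Igfbp3 (ENSMUSG00000020427.11, chromosome 11, 7206086 to 7213923, minus strand), in blood the main carrier of IGFs, had 2.72 and 3.52 TPM in the fusion libraries, against 11.5 and 12.2 TPM in the control libraries. The groups did not overlap, and each group's libraries were close to each other. Its log2 change was -1.65 ± 0.42 (SE; 95% interval -2.71 to -0.59; adjusted p = 0.0227, limma), which is -0.24 relative to the median of all genes. With median ratio scaling the change was -0.14 (adjusted p = 0.820), and with the GC and length correction it was 0.46 (adjusted p = 0.405). It did not pass without control replicate 1 (-1.69, adjusted p = 0.181), without control replicate 2 (-1.60, adjusted p = 0.211) or without mitochondrially encoded genes in the total (-1.21, adjusted p = 0.0661). Igfbp3 stood above 52.7% and 50.3% of them in the fusion libraries, against 55.0% and 52.4% in the control libraries.

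Igfbp2 (ENSMUSG00000039323.18, chromosome 1, 72824503 to 72852474, plus strand), a binding protein abundant in developing brain, had 4.04 and 26.4 TPM in the fusion libraries, against 24.0 and 44.2 TPM in the control libraries. It was the highest member in the control group, while in the fusion group replicate 1 was low and replicate 2 lay within the control range. The log2 change was -1.52 ± 0.87 (SE; 95% interval -3.73 to 0.70; adjusted p = 0.190, limma). Without fusion replicate 1 it was -0.29 (adjusted p = 0.586) and without fusion replicate 2 it was -2.74 (adjusted p = 0.0129), so that 1 library sets this value.

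Igfbp4 (ENSMUSG00000017493.12, chromosome 11, 99041244 to 99054392, plus strand), generally an inhibitor of IGF action, had 6.15 and 9.70 TPM in the fusion libraries, against 7.12 and 7.64 TPM in the control libraries. The control values lie between the fusion values, and the log2 change was 0.06 ± 0.44 (SE; 95% interval -1.05 to 1.18; adjusted p = 0.913, limma), or 1.47 relative to the median. With median ratio scaling it was called higher, by 1.61 (adjusted p = 0.0338), as were 14.3% of tested genes. For Igfbp4, 6.18% of the 31-base stretches occur in other genes, the largest share among the members, so its level is the least certain in that respect.

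Igfbp5, which is often matrix-bound, had 0.563 and 1.39 TPM in the fusion libraries, against 1.61 and 0.803 TPM in the control libraries. The groups overlapped and the log2 change was -0.17 (95% interval -1.07 to 0.74; adjusted p = 0.710, limma). Igfbp6, which prefers IGF2 over IGF1, was listed at 0 in both fusion libraries, against 1.49 and 0.967 TPM in the control libraries. It did not pass the filter. With no filter it was called lower, where 19.8% of the genes then tested were called, 1.42% higher and 18.4% lower. Zeros were common, since 1033 and 1130 of the 12871 tested genes were at 0 in the fusion libraries, against 163 and 175 in the control libraries.

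A share of the summed TPM of the 6 binding proteins within a library does not depend on how libraries are scaled to each other. Shares were not computed with the GC and length correction, which moved the log2 change of Igfbp3 from -1.65 to 0.46. It moved that of Igfbp4 from 0.06 to 1.67. Igfbp7 held 71.3% and 61.3% of that sum in the fusion libraries, against 1.05% and 0.347% in the control libraries. Igfbp2 held 8.62% and 24.9% in the fusion libraries, against 52.0% and 66.9% in the control libraries. Igfbp3 held 5.80% and 3.32% in the fusion libraries, against 24.8% and 18.5% in the control libraries. For these 3 genes the groups did not overlap (exact 2-sided permutation test, p = 0.333, the smallest that 2 libraries against 2 allow). The same held for Igfbp6, at 0% in both fusion libraries, against 3.24% and 1.46% in the control libraries (exact permutation p = 0.333). The shares of Igfbp4 overlapped, at 13.1% and 9.16% in the fusion libraries, against 15.4% and 11.6% in the control libraries, and so did those of Igfbp5 (exact permutation p = 0.667 for each). Since Igfbp7 is part of the sum, the shares are not separate results. Over the other 5 alone, a sum chosen after the values were seen, Igfbp2 held 30.0% and 64.4% in the fusion libraries, against 52.55% and 67.1% in the control libraries, and Igfbp3 held 20.2% and 8.58% in the fusion libraries, against 25.1% and 18.6% in the control libraries. Both then overlapped between the groups, while Igfbp4 did not, at 45.6% and 23.6% in the fusion libraries, against 15.6% and 11.6% in the control libraries (exact permutation p = 0.333). The sum itself was 46.9 and 106 TPM in the fusion libraries, against 46.2 and 66.1 TPM in the control libraries. Without Igfbp7 the other 5 summed to 13.5 and 41.1 TPM in the fusion libraries, against 45.7 and 65.9 TPM in the control libraries.

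**Figure D2:**
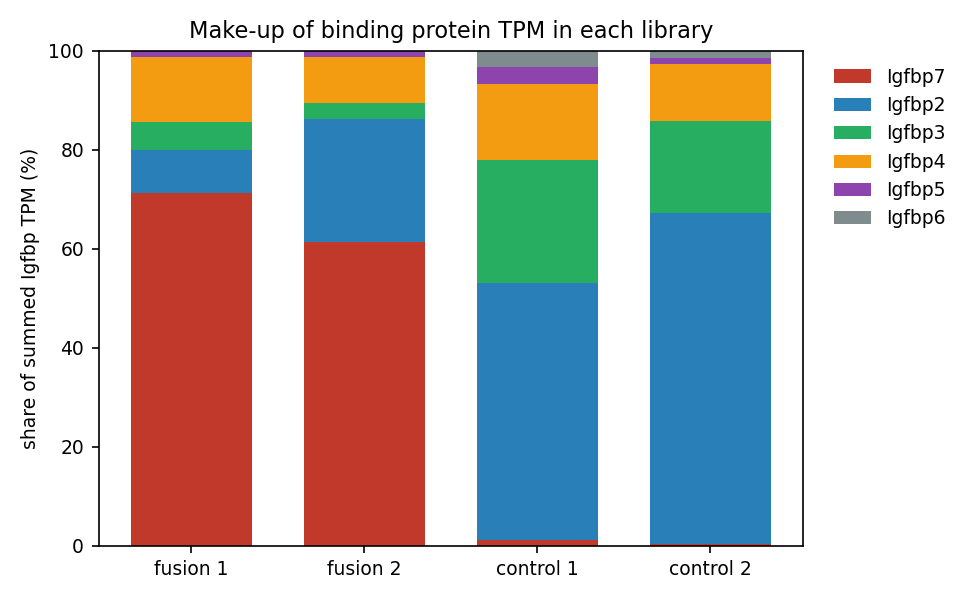
Share of each binding protein in the summed TPM of the 6 Igfbp members, in percent, for each library. Igfbp7 fills 71.3% and 61.3% of the fusion bars, against 1.05% and 0.347% of the control bars, where Igfbp2 is the largest part.

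Igf1r (ENSMUSG00000005533.10, chromosome 7, 67952827 to 68233668, plus strand), the main signalling receptor for both IGFs, had 0.345 and 0.886 TPM in the fusion libraries, against 2.41 and 2.84 TPM in the control libraries. Every fusion library was below every control library. The log2 change was -1.19 ± 0.33 (SE; 95% interval -2.02 to -0.35; adjusted p = 0.0300, limma), or 0.22 relative to the median, and it understates a change at so low a level. Igf1r passed the filter on low values through the control libraries alone, and the call was lost with no filter (adjusted p = 0.130), with a pseudocount of 0.1 (-2.04, adjusted p = 0.0697) and without mitochondrially encoded genes in the total (-1.01, adjusted p = 0.0682). It was also lost with median ratio scaling (change -0.24, adjusted p = 0.587), with the GC and length correction (-0.18, adjusted p = 0.725), without fusion replicate 1 (-0.94, adjusted p = 0.0763), without control replicate 1 (-1.27, adjusted p = 0.128) and without control replicate 2 (-1.10, adjusted p = 0.164).

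Insr (ENSMUSG00000005534.10, chromosome 8, 3122061 to 3279617, minus strand), the insulin receptor, had 2.44 and 2.33 TPM in the fusion libraries, against 3.51 and 3.41 TPM in the control libraries. The groups were apart and tight, yet the log2 change of -0.40 (95% interval -1.37 to 0.57) did not pass (adjusted p = 0.404, limma), with a spread estimated partly from other genes. The ratio of Insr to Igf1r within a library, a measure chosen after the values were seen, was 7.07 and 2.63 in the fusion libraries, against 1.46 and 1.20 in the control libraries. Insr thus exceeded Igf1r in every library, and the ratio was higher in both fusion libraries. Igf1r was under 1 TPM in both fusion libraries (0.345 and 0.886 TPM), so the size of the ratio there is uncertain.

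Igf1 (ENSMUSG00000020053.18, chromosome 10, 87858265 to 87937042, plus strand) had 0.00264 and 3.64 TPM in the fusion libraries, against 2.42 and 0.897 TPM in the control libraries. The fusion libraries enclosed the control range, and the log2 change of -0.24 had a 95% interval of -2.23 to 1.75 (adjusted p = 0.811, limma). Irs2 (ENSMUSG00000038894.7, chromosome 8, 10984681 to 11008458, minus strand), an adaptor that docks on both receptors, had 3.37 and 1.43 TPM in the fusion libraries, against 1.54 and 2.49 TPM in the control libraries. Its groups overlapped, with a log2 change of 0.13 (95% interval -1.02 to 1.28; adjusted p = 0.821, limma). These intervals leave room for a change of more than 1 log2 unit in either direction.

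**Figure D3:**
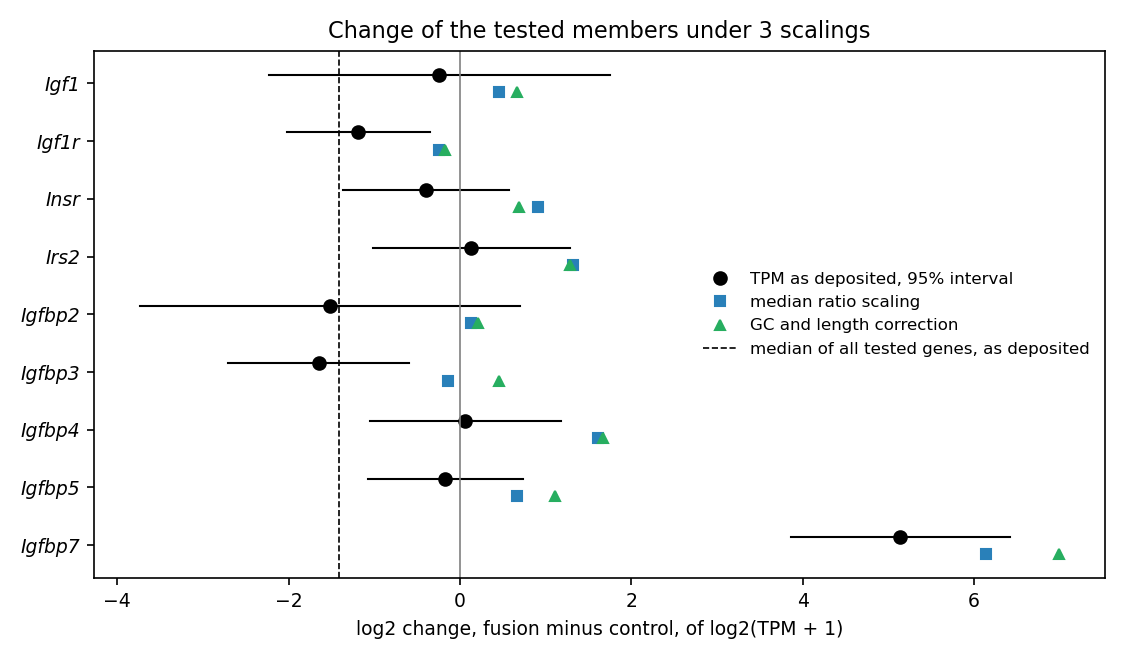
Log2 change, fusion minus control, of the 9 tested members. Black points and bars are the limma estimates with 95% intervals on TPM as deposited, squares are values after median ratio scaling, triangles are values after the GC and length correction, and the dashed line is the median of all tested genes at -1.41. Igfbp7 lies far to the right under all 3, while Igfbp3 is at -1.65, -0.14 and 0.46.

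By mean level the fusion group ran Igfbp7, Igfbp2, Igfbp4, Igfbp3, Irs2, Insr, Igf1, Igfbp5, Igf1r, Igfbp6. Between neighbours in that order the ranges of the 2 libraries were apart only between Igfbp7 and Igfbp2, between Igfbp4 and Igfbp3 and between Igf1r and Igfbp6. In the control group the order was Igfbp2, Igfbp3, Igfbp4, Insr, Igf1r, Irs2, Igf1, Igfbp6, Igfbp5, Igfbp7. There the ranges of Igf1r, Irs2, Igf1, Igfbp6 and Igfbp5 each overlapped with the next, and the other neighbours were apart.

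The other ligand, Igf2, rose. Igf2, an imprinted growth factor of the embryo, had 49.7 and 97.3 TPM in the fusion libraries, against 6.10 and 23.2 TPM in the control libraries, and the groups did not overlap. Its log2 change was 2.43 ± 0.71 (SE, adjusted p = 0.0342, limma), or 3.84 relative to the median. Without control replicate 1 it was 1.54 (adjusted p = 0.227), without control replicate 2 it was 3.31 (adjusted p = 0.121), and without fusion replicate 2 it was 1.95 (adjusted p = 0.109). Igf2 also did not pass with no filter (adjusted p = 0.110) or with a pseudocount of 0.1 (2.53, adjusted p = 0.0558). Igf2 stood at 1.06 and 0.918 times the binding protein sum in the fusion libraries, against 0.132 and 0.351 times in the control libraries. This ratio and the next sum were chosen after the values were seen, and Igfbp7 made up 71.3% and 61.3% of the binding protein sum in the fusion libraries. Igf1 and Igf2 together had 49.7 and 101 TPM in the fusion libraries, against 8.51 and 24.1 TPM in the control libraries. Ins1 and Ins2, the insulin genes, were listed at 0 in all 4 libraries.

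Igf2r, the receptor that takes IGF2 up for degradation, had 0.911 and 1.42 TPM in the fusion libraries, against 0.739 and 0.958 TPM in the control libraries, and these overlapped. Insrr, a receptor related to the insulin receptor, had 0.926 and 0.349 TPM in the fusion libraries and was listed at 0 in the control libraries. Igfbpl1, a distant relative of the binding proteins, stayed at or below 0.747 TPM in each library. These 3 genes did not pass the filter.

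Of 7 binding protein proteases and their inhibitors, 3 were tested, 1 rose and none fell, where 4.95% of all tested genes rose and 51.3% fell. Htra1, a serine protease that cuts IGFBP5 among other proteins, had 14.04 and 24.1 TPM in the fusion libraries, against 4.31 and 5.50 TPM in the control libraries (log2 change 1.73 ± 0.46, SE, adjusted p = 0.0262, limma). Without control replicate 1 its adjusted p was 0.208, without control replicate 2 it was 0.192 and with no filter 0.0589, so that with no filter no pathway gene outside the members was called higher. Pappa, a protease that cuts IGFBP4 and IGFBP5 and is named after its values were seen, was at most 0.199 TPM in a fusion library and at 0 in the control libraries. Of 3 genes for proteins that bind Igf2 mRNA, 2 were tested and 1 fell, as did 51.3% of all tested genes. Igf2bp3 had 3.55 and 4.05 TPM in the fusion libraries, against 16.97 and 20.1 TPM in the control libraries (log2 change -2.02 ± 0.40, SE, adjusted p = 0.0114, limma). With median ratio scaling it was -0.45 (adjusted p = 0.416).

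Of 14 receptor adaptors and brakes, 10 were tested, none rose and 2 fell, where 4.95% of all tested genes rose and 51.3% fell. Under median ratio scaling 2 of the 10 were higher and none lower, against 14.3% and 18.6% of all tested genes. Ptpn1, a phosphatase that switches off the insulin receptor, had 1.52 and 1.00 TPM in the fusion libraries, against 5.72 and 8.25 TPM in the control libraries (log2 change -1.81 ± 0.43, SE, adjusted p = 0.0184, limma). Grb2, an adaptor to the Ras pathway, had 0.886 and 2.64 TPM in the fusion libraries, against 6.61 and 6.99 TPM in the control libraries (log2 change -1.57 ± 0.49, SE, adjusted p = 0.0427). With median ratio scaling neither passed, at -0.49 for Ptpn1 (adjusted p = 0.478) and -0.27 for Grb2 (adjusted p = 0.691). Without a control library Ptpn1, Grb2 and Igf2bp3 did not pass (adjusted p = 0.120 to 0.269, limma). Grb2 also did not pass without fusion replicate 1 (adjusted p = 0.0651), and its change was 0.43 with the GC and length correction.

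The PI3 kinase, Akt, mTOR and Foxo list had 28 genes and 22 tested, of which 11 fell, none rose and the other 11 stayed short of the threshold. The background of genes that fell was 51.3%, so the list's share is near it, and its median change was -1.65 against -1.41 over all genes. Median ratio scaling left 2 of the 22 higher and 1 lower, against 14.3% and 18.6% of all tested genes. Mlst8, a subunit shared by both mTOR complexes, had 0.207 and 0.0217 TPM in the fusion libraries, against 5.11 and 9.99 TPM in the control libraries. It passed the filter on low values through the control libraries alone and was near the floor in the fusion libraries. Its log2 change was -2.88 ± 0.43 (SE, adjusted p = 0.00573, limma), and of the members and pathway genes named here it was the 1 that passed without control replicate 1 (adjusted p = 0.0402) and without control replicate 2 (adjusted p = 0.0465). Pik3r1, the main regulatory subunit of PI3 kinase, had 6.29 and 5.53 TPM in the fusion libraries, against 43.7 and 48.2 TPM in the control libraries (log2 change -2.76 ± 0.37, SE, adjusted p = 0.00450).

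Rps6kb1, an mTOR target kinase, had 10.8 and 3.34 TPM in the fusion libraries, against 39.2 and 45.0 TPM in the control libraries (log2 change -2.59 ± 0.58, SE, adjusted p = 0.0156, limma). Akt2, a kinase central to insulin signalling, had 4.23 and 1.73 TPM in the fusion libraries, against 17.9 and 23.6 TPM in the control libraries (log2 change -2.51 ± 0.51, SE, adjusted p = 0.0117). With median ratio scaling, Mlst8 stayed past the threshold (-1.95, adjusted p = 0.0241), and Pik3r1 (-1.11, adjusted p = 0.0886), Rps6kb1 (-0.93, adjusted p = 0.389) and Akt2 (-0.97, adjusted p = 0.297) did not. Without a control library Pik3r1, Rps6kb1 and Akt2 did not pass (adjusted p = 0.0917 to 0.217, limma). Mlst8 did not pass with the GC and length correction (-1.26, adjusted p = 0.0681).

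Across all 60 other pathway genes, 38 were tested, 2 rose, 14 fell and 22 did not pass. That is 5.26% higher and 36.8% lower, against 4.95% and 51.3% of all tested genes. Median ratio scaling gave 6 higher and 1 lower, with 31 not past the threshold, against 14.3% and 18.6% of all tested genes.

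**Figure D4:**
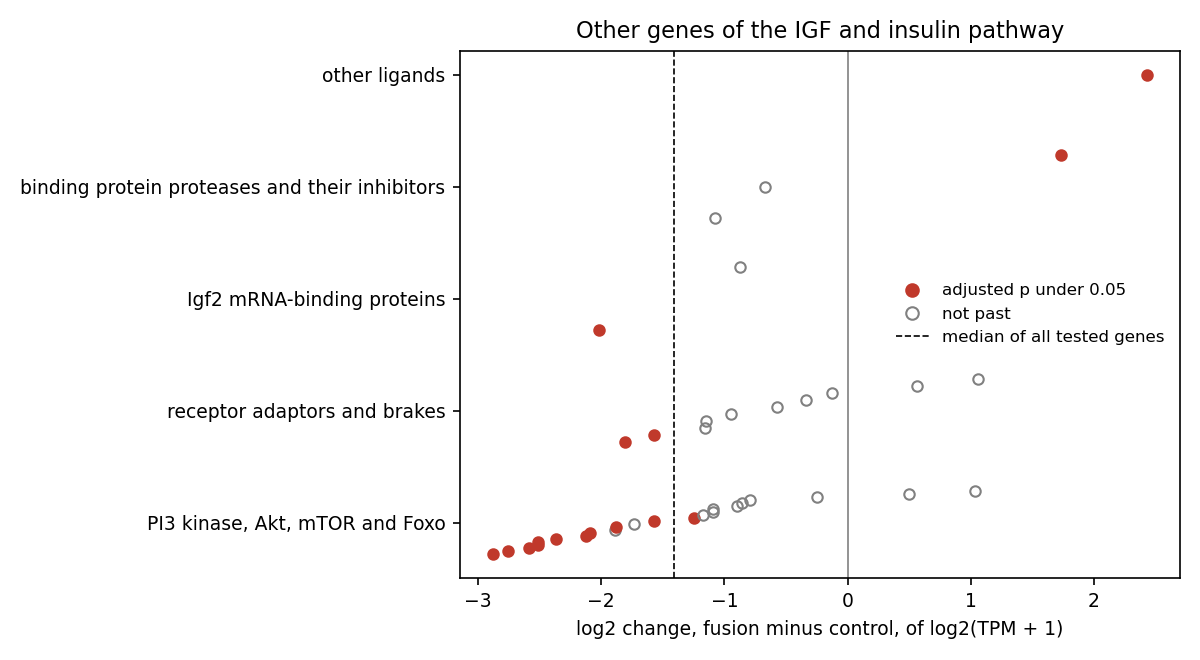
Log2 change, fusion minus control, of the 38 tested pathway genes that are not members, by list. Each point is 1 gene, filled where the adjusted p was under 0.05, and the dashed line is the median of all tested genes at -1.41. The 2 filled points right of 0 are Igf2 and Htra1.

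Cell type markers differed between the groups alongside these genes, and their part in the changes of the members was not tested. The sum of 8 oligodendrocyte precursor markers was 317 and 428 TPM in the fusion libraries, against 1081 and 1403 TPM in the control libraries, with 6 of 8 called lower and none higher, where 51.3% of all tested genes were lower. Under median ratio scaling 1 of the 8 was lower and none higher, against 18.6% and 14.3% of all tested genes. Pdgfra, which defines the lineage, was at 123 and 192 TPM in the fusion libraries, against 337 and 429 TPM in the control libraries, a log2 change of -1.30 (adjusted p = 0.0358, limma), or 0.11 relative to the median of all genes. The direction turned with median ratio scaling, to scaled values of 269.5 and 277.5 in the fusion libraries, against 189.1 and 207 in the control libraries. Of 11 tested fibroblast markers, 5 rose and 1 fell, where 4.95% of all tested genes rose and 51.3% fell. Median ratio scaling gave 8 higher and none lower, against 14.3% and 18.6% of all tested genes. The sum of all 12 listed was 499.7 and 989.6 TPM in the fusion libraries, against 57.4 and 151 TPM in the control libraries, and most of it was Mgp, a matrix protein, at 364 and 717 TPM in the fusion libraries, against 0 and 1.34 TPM in the control libraries. Without Mgp the sums were 135 and 272 TPM in the fusion libraries, against 57.4 and 149 TPM in the control libraries, and these overlapped.

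Of 12 tested microglia and macrophage markers, 4 rose and 2 fell, where 4.95% of all tested genes rose and 51.3% fell. With median ratio scaling 5 were higher and none lower, against 14.3% and 18.6% of all tested genes. P2ry12, a microglial receptor named after its values were seen, was at 0 in both fusion libraries, against 1.81 and 1.03 TPM in the control libraries. It was 1 of the 2 that fell, by -1.25, or 0.15 relative to the median of all genes. It passed the filter through the control libraries alone. The sum of all 14 listed was 495 and 727 TPM in the fusion libraries, against 143 and 61.5 TPM in the control libraries. Fcer1g, an Fc receptor chain, was the highest of them, at 327 and 480 TPM in the fusion libraries, against 27.4 and 1.17 TPM in the control libraries. Tyrobp, the next by mean, had 105 and 116 TPM in the fusion libraries, against 16.6 and 7.66 TPM in the control libraries (adjusted p = 0.00537, limma). Mural cell markers overlapped, with a sum of 16.0 and 139.7 TPM in the fusion libraries, against 59.8 and 218 TPM in the control libraries. Higd1b, a pericyte marker, was at 0 in fusion replicate 1 and 62.0 TPM in fusion replicate 2, against 1.33 and 1.18 TPM in the control libraries.

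Of 8 choroid plexus markers, 6 were at 0 in both fusion libraries, and 3 of the 8 were at 0 in all 4 libraries. Only 2 were tested, of which 1 rose and 1 fell, where 4.95% of all tested genes rose and 51.3% fell. With median ratio scaling 1 was higher and none lower. Ttr, the thyroxine carrier made by choroid plexus, had 107 and 15.4 TPM in the fusion libraries, against 0 and 0.255 TPM in the control libraries. It was called higher (log2 change 5.23, adjusted p = 0.00859, limma) and passed the filter through the fusion libraries alone. Otx2, a transcription factor of choroid plexus, was the 1 such marker called lower, at 0 and 0.379 TPM in the fusion libraries, against 2.38 and 1.52 TPM in the control libraries. Otx2 passed the filter through the control libraries alone, and its log2 change of -1.31 was 0.09 relative to the median of all genes. Folr1 and Kcnj13, choroid plexus markers named after their values were seen, were at 0 in all 4 libraries. Igf2 and Igfbp2 are also known from choroid plexus, and the part of such cells in their values was not tested. The astrocyte sum was 34.8 and 61.4 TPM in the fusion libraries, against 146 and 183 TPM in the control libraries. Of 5 tested astrocyte markers 2 fell and none rose, where 51.3% of all tested genes fell and 4.95% rose. With median ratio scaling 1 was higher and none lower, against 14.3% and 18.6% of all tested genes. The neuron sum was 47.4 and 30.3 TPM in the fusion libraries, against 184 and 179.5 TPM in the control libraries. Of 6 tested neuron markers 3 fell and none rose, against the same backgrounds. With median ratio scaling 1 neuron marker was higher and 2 lower. The ependymal sum was 3.21 and 2.69 TPM in the fusion libraries, against 4.51 and 3.07 TPM in the control libraries.

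**Figure D5:**
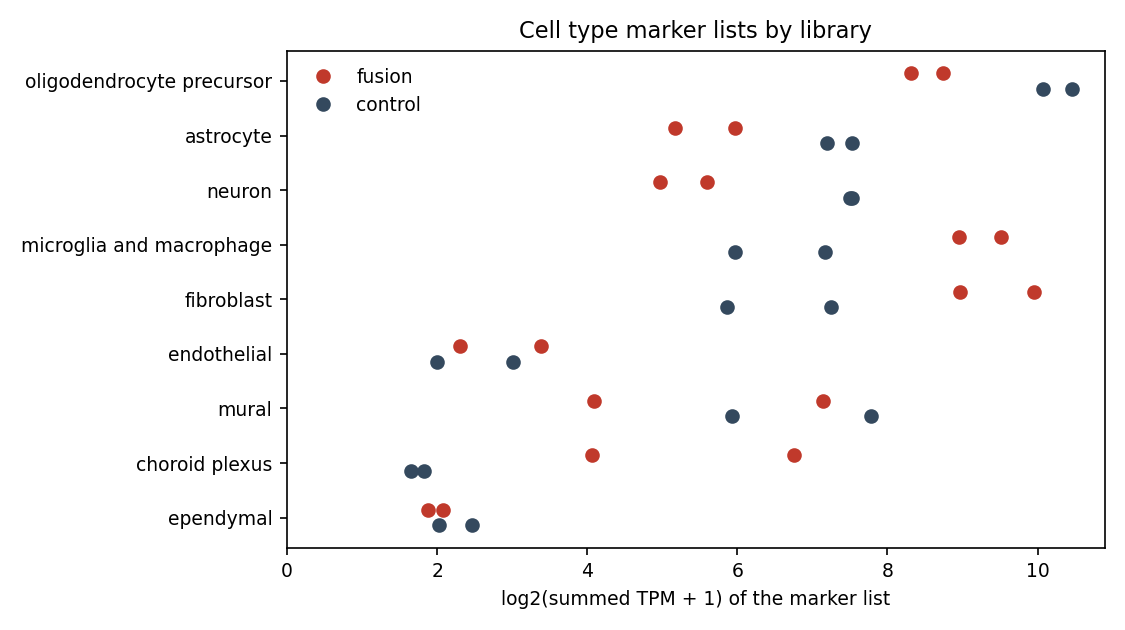
Summed TPM of each cell type marker list, as log2(sum + 1), with 1 point for each library. Oligodendrocyte precursor sums are lower in the fusion libraries (317 and 428 TPM) than in the control libraries (1081 and 1403 TPM), fibroblast sums are higher (499.7 and 989.6 against 57.4 and 151 TPM), and endothelial sums stay under 10 TPM in each library.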

How the data were processed

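RNA was amplified as full-length cDNA from sorted cells and sequenced with 100 bp paired reads, per the labels' protocols; no label states a strand-specific kit. The authors deposited 1 table of TPM per gene. The submitters' processing notes name Trimmomatic 0.39, Salmon 1.8.0 and 2 names of 1 build, mm10 and GRCm38, but no annotation. Columns were matched to samples by genotype and replicate number. Forebrains of individual mice were dissociated, but the labels tie no library to a mouse. The spread behind each p-value is therefore that between libraries and may be technical. Depth is unknown, so no counting interval is given.

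Groups were compared by limma 3.58.1 in R 4.3.3 (eBayes with trend, 2-sided) on log2(TPM + 1), over genes reaching 1 TPM in 2 or more of 4 libraries, with Benjamini-Hochberg adjustment over all 12871 tested genes and a threshold of 0.05. This scale understates changes of low genes. The alternatives tried are in the closing section; the GC and length correction (loess, span 0.3, on the longest GENCODE M21 transcript) was chosen after seeing the data. Median ratio scaling used 10965 tested genes above 0 in every library. Members and lists were chosen with earlier results of these data known. All members are named, and of each pathway list up to 4 genes past the threshold with the largest change, or up to 2 of the highest mean; of each marker list up to 2 of the highest mean. Polr2b, Pecam1, Cdh5, P2ry12, Folr1, Kcnj13, Igfbp1, Ins1, Ins2 and Pappa were named after their values were seen.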

Additional observations from a re-analysis of the deposited data

How the results depend on the processing

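Igfbp7 kept its direction in all 18 settings, at 3.28 to 6.99, and passed in 16, all but those without a control library. Of the 9 tested members, 3 passed as reported, 1 when TPM were renormalized without mitochondrially encoded genes or without those and ribosomal protein genes, and 0 to 4 with 1 library left out; it was 0 without control replicate 1 and without control replicate 2. Of the pathway genes, 16 passed as reported, 7 with no filter, 7 with median ratio scaling, 7 with quantile normalization, 8 with the GC and length correction, 10 with that correction and a replicate block, and 2 to 21 with 1 library left out. With median ratio scaling, changes turned for Igf1 (0.45), Insr (0.91), Igfbp2 (0.13) and Igfbp5 (0.67). With quantile normalization they turned for Igf1 (0.86), Igf1r (0.12), Insr (1.01), Igfbp2 (0.15) and Igfbp5 (1.01). Without mitochondrially encoded genes they turned for Insr (0.03) and Igfbp5 (0.11), and without ribosomal protein genes too for Insr (0.08) and Igfbp5 (0.15). With the GC and length correction, with or without the replicate block, they turned for Igf1 (0.67), Insr (0.69), Igfbp2 (0.21), Igfbp3 (0.46), Igfbp5 (1.11) and Grb2 (0.43). With 1 library left out, Igf1 ranged from -1.34 to 0.87, Irs2 from -0.29 to 0.56, Igfbp4 from -0.23 to 0.35 and Igfbp5 from -0.47 to 0.14. These scalings move the median of all genes from -1.41 to between -1.11 and 0.00; beyond that the cause was not tested. The replicate numbers do not pair the libraries by the labels, and deviations of same-numbered libraries correlated at -0.0398; with the number as a block 4 members passed, Igfbp2 among them (adjusted p = 0.0435). Shares of the binding protein sum moved by less than 1 SD when Igfbp1 and Igfbpl1 joined the sum. With Igfbp7 left out of the sum, a choice made after seeing the data, the mean fusion shares were 47.2% for Igfbp2, 14.39% for Igfbp3, 34.63% for Igfbp4 and 3.782% for Igfbp5, since the sum is smaller by construction. Depth is unknown, so how far it limits the genes under 1 TPM cannot be given.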
